A study of Mus musculus with 4 samples.

Results

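The expression of 10 integrin subunit genes was examined in mouse embryonic fibroblasts (MEF) with and without *Hmga2*. The genes were *Itga1*, *Itga5*, *Itga8*, *Itga11* and *Itgav*, which encode α subunits, and *Itgb1*, *Itgb3*, *Itgb5*, *Itgb7* and *Itgb8*, which encode β subunits. They were chosen by name, and all 10 were found among 20804 protein-coding genes, where transcripts of the table were assigned to genes by their mm10 position on the same strand and the transcript with the longest gene body stood for its gene. Total RNA was sequenced in 4 libraries, 1 for each condition: *Hmga2*+/+ Ctrl, *Hmga2*+/+ TGFB1, *Hmga2*-/- Ctrl and *Hmga2*-/- TGFB1. *Hmga2* encodes an architectural chromatin protein, and TGFB1 is a growth factor that drives fibroblasts towards matrix production. All cells were C57BL/6 MEF taken at embryonic day 15.5 from the body that remained after head, limbs, tail and inner organs were removed, were immortalised with SV40, and were kept overnight in medium with 1% FCS before treatment. Ctrl cells received water, and TGFB1 cells received recombinant human TGFB1 at 10 ng/ml over 24 h. The lines came from wild-type and *Hmga2*-deficient embryos, so that differences between the genotypes cannot be told apart from differences between the lines. Whether each line is 1 clone is not stated in the sources used here.

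Integrins are receptors made of 1 α and 1 β subunit that span the cell membrane, bind the extracellular matrix outside and are coupled to actin inside through talin and kindlin. The pair decides the ligand: α1 and α11 form collagen receptors with β1, α5 with β1 is the main fibronectin receptor, α8 with β1 binds nephronectin, and αv pairs with several β subunits to bind vitronectin, fibronectin and the latent form of TGFB1. Integrins with αv can release active TGFB1 from its latent complex, and in fibrosis integrins on fibroblasts are known for carrying tension from the matrix into the cell.

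Levels are given as RPKM, in which the reads of a transcript are divided by its length and by the number of reads mapped in the library, so that levels can be compared between genes. The values in the table gave 56140000 to 57300000 mapped reads per library, and the reads behind each level were recovered from them. The 95% intervals given in square brackets are exact (Poisson for a level, binomial for a ratio of 2 libraries) and cover counting error only. Since each condition had 1 library, differences could not be set against replicate error, and p-values are not given. A gene is said to have risen or fallen where the RPKM of the libraries compared differed at least 1.5-fold, the threshold for TGFB1 inducible genes in the study. The *Hmga2* transcript was at 14.8 RPKM without and 40.7 RPKM with TGFB1 in *Hmga2*+/+ MEF, and had no reads in either *Hmga2*-/- library, where a count of 0 allows up to 0.0124 RPKM by the limit of 3 reads. All 12 fibroblast markers examined had reads in all libraries, with *Vim* between 958 and 1497 RPKM and a summed RPKM of 2056 to 2521. Of the 11 with a mean of at least 1 RPKM, 5 fell and 1 rose with TGFB1 in *Hmga2*+/+, and 6 fell and 2 rose in *Hmga2*-/-. Of all genes with this mean 15.3% fell and 11.1% rose in *Hmga2*+/+, and 13.7% fell and 12.8% rose in *Hmga2*-/-. Among 16 leukocyte markers *Cd3e*, *Spi1* and *Tyrobp* were at 0 in all libraries, and the summed RPKM of the list was 1.76 to 2.12, most of it *Cd68*. Among 8 endothelial markers *Tie1* was at 0 throughout and *Pecam1* reached at most 0.030 RPKM, with a summed RPKM of 7.10 to 10.5, most of it *Kdr*, *Tek* and *Erg*. The summed RPKM of 10 epithelial markers was 1.16 to 3.06.

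*Itgb1*, the shared partner of most α subunits, had by far the highest level of the members (the plot of levels by gene). Its RPKM was 155 [154, 157] in *Hmga2*+/+ Ctrl, 285 [283, 287] in *Hmga2*+/+ TGFB1, 160 [158, 162] in *Hmga2*-/- Ctrl and 340 [338, 343] in *Hmga2*-/- TGFB1. By level it stood at rank 81 of all protein-coding genes in *Hmga2*+/+ Ctrl and at rank 33 in *Hmga2*-/- TGFB1. Next came *Itgav*, *Itgb5* and *Itga5* in that order in all 4 libraries, with intervals that did not overlap between neighbours. In the *Hmga2*+/+ Ctrl library *Itgb8*, *Itga1* and *Itga11* followed, and *Itga8* at 0.997 [0.891, 1.11] RPKM could not be told from *Itgb3* at 0.889 [0.789, 0.998] RPKM by counting error. In *Hmga2*-/- Ctrl the intervals of *Itgb3*, 0.925 [0.823, 1.03] RPKM, and *Itga11*, 0.822 [0.719, 0.936] RPKM, overlapped. So did those of *Itgb8*, 4.15 [3.86, 4.47] RPKM, and *Itga1*, 3.84 [3.63, 4.05] RPKM, in this library. Under TGFB1 *Itga11* moved up to the place after *Itga5* in both genotypes, and in *Hmga2*-/- TGFB1 the intervals of *Itga8* and *Itgb3* overlapped again. *Itgb7*, known as a leukocyte subunit, was lowest in every library, with 1 to 22 reads.

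**Figure D1:**
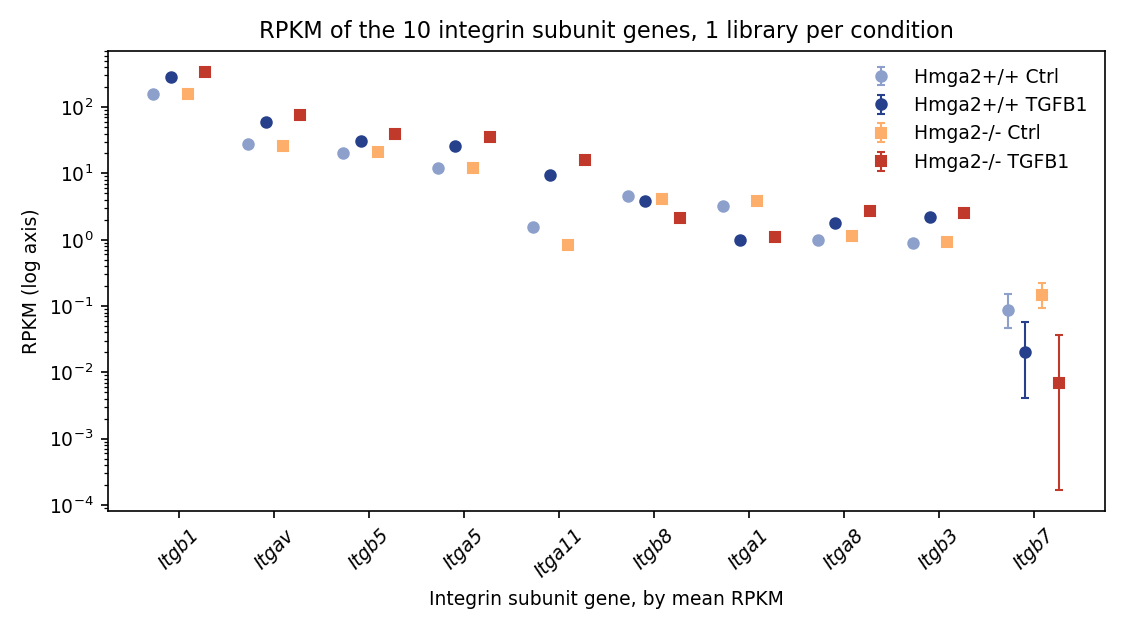
RPKM on a log axis of the 10 integrin subunit genes in the 4 libraries, ordered by mean RPKM, with 95% Poisson intervals (counting error only; 1 library per condition). *Itgb1* lies between 155 and 340 RPKM, *Itga11* spans the widest range among genes above 0.5 RPKM, and *Itgb7* is at or below 0.147 RPKM.

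With TGFB1 7 of the 10 members rose at least 1.5-fold in *Hmga2*+/+ MEF, namely *Itga5*, *Itga8*, *Itga11*, *Itgav*, *Itgb1*, *Itgb3* and *Itgb5*. *Itga1* and *Itgb7* fell, and *Itgb8* stayed between the thresholds. Of all protein-coding genes 11.6% rose and 19.2% fell in this comparison. The median log2 change of the members was 0.85, against -0.091 over genes with reads. In *Hmga2*-/- MEF the 7 risen members were again *Itga5*, *Itga8*, *Itga11*, *Itgav*, *Itgb1*, *Itgb3* and *Itgb5*, and *Itga1*, *Itgb7* and *Itgb8* fell, where 13.0% of all protein-coding genes rose and 18.4% fell. The median log2 change of the members was 1.17 there, against -0.033 over genes with reads. Of the members 9 had a mean of at least 1 RPKM over the 4 libraries and *Itgb7* did not. Among the 10314 genes that passed this filter 11.1% rose and 15.3% fell in *Hmga2*+/+, and 12.8% rose and 13.7% fell in *Hmga2*-/-. These comparisons of TGFB1 with Ctrl share no library.

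**Figure D2:**
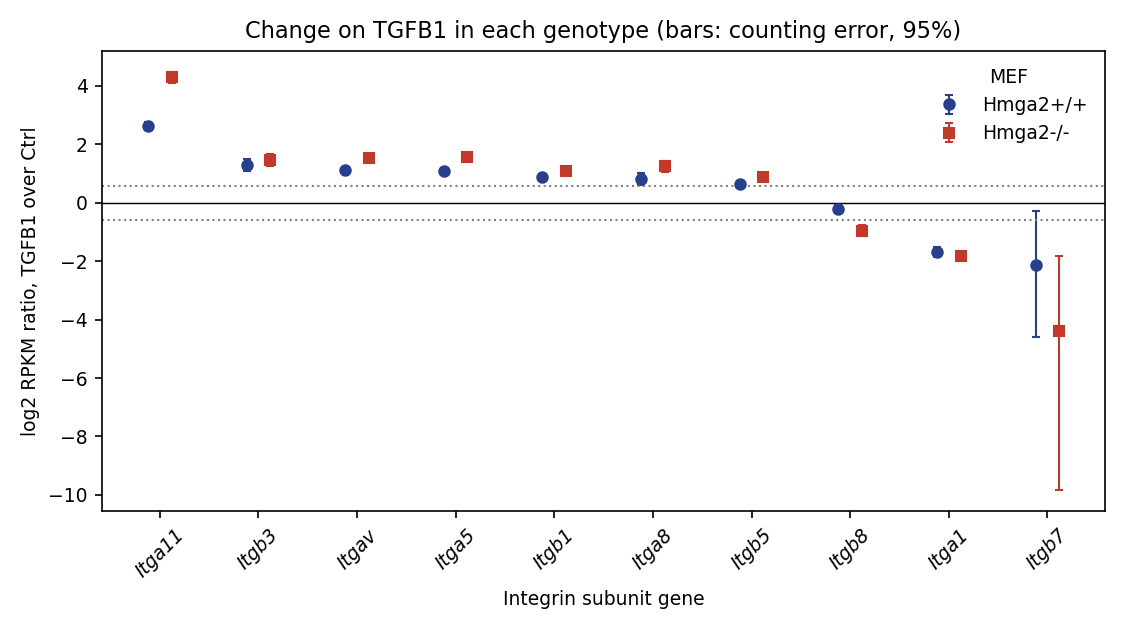
log2 RPKM ratio of TGFB1 over Ctrl for each member in *Hmga2*+/+ (circles) and *Hmga2*-/- (squares), with 95% binomial intervals (counting error only) and dotted lines at 1.5-fold. The 7 members on the left lie above the upper line in both genotypes, *Itga1* and *Itgb7* lie below the lower line in both, and *Itgb8* lies below it only in *Hmga2*-/-.

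Among the collagen receptors *Itga11* and *Itga1* moved in opposite directions. *Itga11*, an α subunit by which fibroblasts bind fibrillar collagen, lies on chromosome 9 (62677855 to 62783979, plus strand). Its RPKM was 1.56 [1.41, 1.71] in *Hmga2*+/+ Ctrl (426 reads), 9.60 [9.24, 9.97] in *Hmga2*+/+ TGFB1 (2684 reads), 0.822 in *Hmga2*-/- Ctrl (227 reads) and 16.1 [15.6, 16.5] in *Hmga2*-/- TGFB1 (4465 reads). Both TGFB1 libraries were above both Ctrl libraries, and the *Hmga2*-/- libraries held both the lowest and the highest level. The rise was 6.18-fold in *Hmga2*+/+ (log2 2.63 [2.48, 2.78]) and 19.6-fold in *Hmga2*-/- (log2 4.29 [4.10, 4.49]). With 1 RPKM added to every value these changes were log2 2.05 and 3.23. Compared between the genotypes the log2 change was larger in *Hmga2*-/- by 1.66 [1.42, 1.91], of which the lower Ctrl level gave 0.92 and the higher TGFB1 level 0.74. No other member differed so much in its response on this scale except *Itgb7*, whose difference rests on 1 to 22 reads.

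*Itga1*, which with β1 binds collagens including the collagen IV of basement membranes, lies on chromosome 13 (114958081 to 115101964, minus strand). Its RPKM was 3.20 [3.01, 3.40] in *Hmga2*+/+ Ctrl (1065 reads), 1.00 [0.898, 1.11] in *Hmga2*+/+ TGFB1 (340 reads), 3.84 [3.63, 4.05] in *Hmga2*-/- Ctrl (1287 reads) and 1.09 [0.985, 1.21] in *Hmga2*-/- TGFB1 (369 reads). Both Ctrl libraries were above both TGFB1 libraries. The level was 3.20-fold lower with TGFB1 in *Hmga2*+/+ (log2 -1.68 [-1.86, -1.50]) and 3.51-fold lower in *Hmga2*-/- (log2 -1.81 [-1.98, -1.64]), and the interval of the difference between these changes, -0.13 [-0.38, 0.11], included 0. The gene *Pelo*, which acts in the rescue of stalled ribosomes, lies inside *Itga1* on the same strand, so that reads of both can fall in 1 span. *Pelo* had 4.53 to 5.19 RPKM in the 4 libraries and its log2 change with TGFB1 was -0.19 in *Hmga2*+/+ and 0.10 in *Hmga2*-/-. The second, shorter *Itga1* transcript of the table had log2 changes of -1.88 and -1.64.

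The make-up of the collagen receptor α subunits differed between Ctrl and TGFB1. The RPKM of *Itga1*, *Itga2*, *Itga10* and *Itga11*, summed after their values were seen, was 5.38 in *Hmga2*+/+ Ctrl, 13.1 in *Hmga2*+/+ TGFB1, 5.24 in *Hmga2*-/- Ctrl and 19.4 in *Hmga2*-/- TGFB1. *Itga1* made up 59.5% of the sum in *Hmga2*+/+ Ctrl and 7.66% in *Hmga2*+/+ TGFB1, and 73.2% and 5.63% in the *Hmga2*-/- libraries. *Itga11* made up 28.9% and 73.5% in the *Hmga2*+/+ libraries, and 15.7% and 82.8% in the *Hmga2*-/- libraries. *Itga2*, another collagen receptor subunit and no member, was at 0.137 and 2.098 RPKM in the *Hmga2*+/+ libraries and at 0.144 and 1.88 RPKM in the *Hmga2*-/- libraries, Ctrl first, and *Itga10* stayed between 0.370 and 0.486 RPKM.

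**Figure D3:**
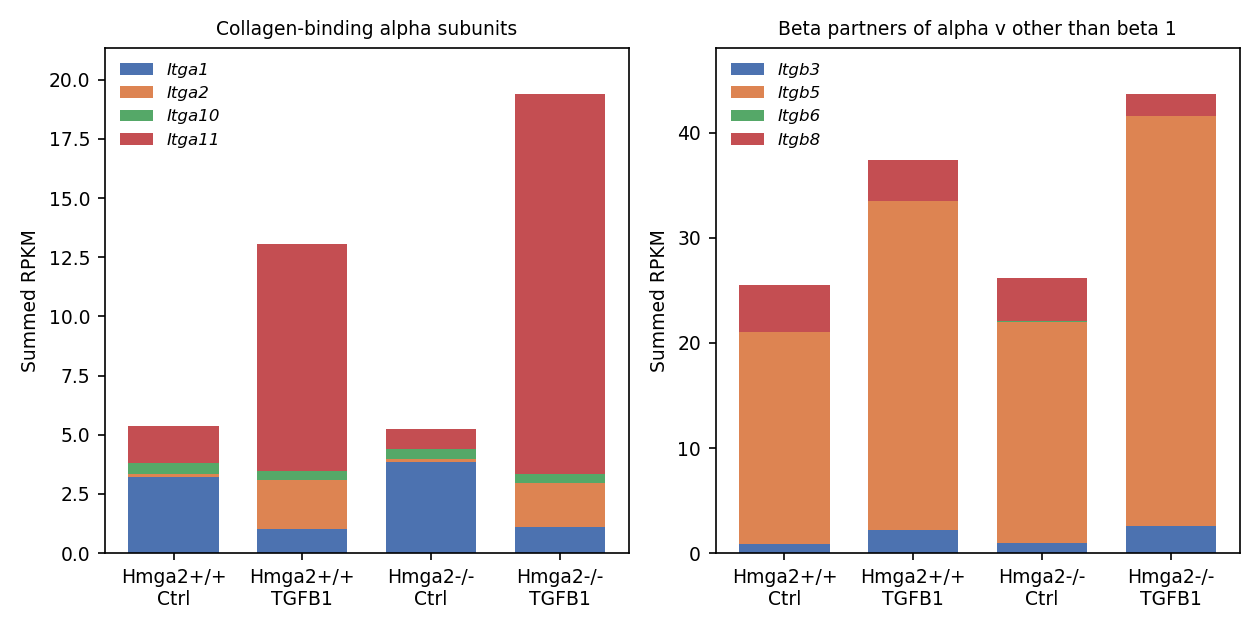
Summed RPKM per library of the collagen-binding α subunits (left) and of the β partners of αv other than β1 (right), stacked by gene, 1 library per condition. On the left *Itga1* is the largest share in both Ctrl libraries and *Itga11* in both TGFB1 libraries, and on the right *Itgb5* is between 78.9% and 89.3% of the sum while *Itgb8* takes its smallest share, 4.90%, in *Hmga2*-/- TGFB1.

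Near the start of a gene, promoter sequence was available for 9 of the 10 members as RefSeq sequence of GRCm38.p6, 250 bases before to 50 after the start site. The promoters of *Itga11* and *Itga1* are shown because these genes moved most and in opposite directions among the members above 1 RPKM, and those of *Itgb1* and *Itgb8* because they were the ones with the SMAD element, the letters bound by the transcription factors that act downstream of TGFB1. Capitals mark matches to any of 5 motifs, searched on both strands, namely the SMAD element CAGACA, the AP-1 element TGANTCA, the TEAD element GGAATG, the SP1 GC box GGGCGG and the TATA box TATAAA. No matches overlapped in these sequences.
Itga11, chr9:62677605-62677904, plus strand: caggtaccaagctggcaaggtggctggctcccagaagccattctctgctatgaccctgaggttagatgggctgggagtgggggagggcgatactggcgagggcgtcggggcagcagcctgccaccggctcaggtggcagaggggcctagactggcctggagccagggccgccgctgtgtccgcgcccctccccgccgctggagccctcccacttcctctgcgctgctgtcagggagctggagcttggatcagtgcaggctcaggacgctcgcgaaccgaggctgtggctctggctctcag
Itga1, chr13:115101915-115102214, minus strand: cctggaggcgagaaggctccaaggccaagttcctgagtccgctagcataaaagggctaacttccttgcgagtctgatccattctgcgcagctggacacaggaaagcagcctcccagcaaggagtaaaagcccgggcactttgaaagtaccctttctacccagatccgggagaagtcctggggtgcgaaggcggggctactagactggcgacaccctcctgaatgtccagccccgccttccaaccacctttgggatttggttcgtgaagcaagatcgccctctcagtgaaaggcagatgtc
Itgb1, chr8:128685404-128685703, plus strand: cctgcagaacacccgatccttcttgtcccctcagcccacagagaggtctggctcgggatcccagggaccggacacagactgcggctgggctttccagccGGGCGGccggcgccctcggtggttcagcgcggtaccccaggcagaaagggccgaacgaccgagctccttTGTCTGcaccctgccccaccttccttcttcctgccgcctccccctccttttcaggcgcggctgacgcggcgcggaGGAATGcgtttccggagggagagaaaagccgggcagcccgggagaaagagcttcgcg
Itgb8, chr12:119238227-119238526, minus strand: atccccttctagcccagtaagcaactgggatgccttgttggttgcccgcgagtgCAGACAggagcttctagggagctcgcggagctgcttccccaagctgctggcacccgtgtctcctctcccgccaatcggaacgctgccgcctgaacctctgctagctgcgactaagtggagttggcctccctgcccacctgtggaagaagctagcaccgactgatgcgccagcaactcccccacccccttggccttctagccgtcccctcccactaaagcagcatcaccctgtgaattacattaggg

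The SMAD element was found in the promoters of 2 of 9 members, at -82 in *Itgb1* and at -196 in *Itgb8*, counted from the start site to the first letter of the motif, and in 18.3% of the 16182 mouse promoters of this length. *Itgb1* rose in both genotypes, and *Itgb8* fell at least 1.5-fold only in *Hmga2*-/-. Whether the element bears on the direction of change was not tested. The GC box was found in 4 of 9 members, namely *Itga5*, *Itgav*, *Itgb1* and *Itgb5*, and in 48.7% of all promoters. The TEAD element was found in *Itgb1* alone, at -7, and in 13.1% of all promoters. The AP-1 element and the TATA box were in none of the 9 windows, and in 7.12% and 12.8% of all promoters. The GC content was 68.0% for *Itga11* and 56.7% for *Itga1*, with a median of 57.0% over all promoters. These matches are a description of the letters in the window, and binding was not measured in these data.

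Among the members the α subunits that recognise RGD, the short peptide motif of fibronectin, vitronectin and latent TGFB1, rose in both genotypes. *Itgav*, on chromosome 2 (83724397 to 83806917, plus strand), had 27.5 [26.9, 28.0] RPKM in *Hmga2*+/+ Ctrl, 60.2 [59.4, 60.9] RPKM in *Hmga2*+/+ TGFB1, 26.2 [25.7, 26.7] RPKM in *Hmga2*-/- Ctrl and 75.1 [74.2, 75.9] RPKM in *Hmga2*-/- TGFB1. Its log2 change with TGFB1 was 1.13 [1.099, 1.165] in *Hmga2*+/+ and 1.52 [1.49, 1.55] in *Hmga2*-/-. *Itga5*, the fibronectin receptor subunit, on chromosome 15 (103344286 to 103366791, minus strand), had 11.95 RPKM in *Hmga2*+/+ Ctrl, 25.6 RPKM in *Hmga2*+/+ TGFB1, 11.95 RPKM in *Hmga2*-/- Ctrl and 35.6 RPKM in *Hmga2*-/- TGFB1. The Ctrl levels of *Itga5* were thus equal between the genotypes to 2 decimals, and the rise was 2.15-fold in *Hmga2*+/+ and 2.98-fold in *Hmga2*-/-. *Itga8*, the nephronectin receptor subunit, on chromosome 2 (12106660 to 12301920, minus strand), had 0.997, 1.76, 1.16 and 2.74 RPKM in the same order of libraries, from 321 to 894 reads, and rose 1.76-fold and 2.37-fold. With 1 RPKM added to every value the rise of *Itga8* in *Hmga2*+/+ was log2 0.47, below 1.5-fold. The shortest *Itga8* transcript rose by log2 0.38 in *Hmga2*+/+, also below 1.5-fold, and by log2 0.94 in *Hmga2*-/-. In all 3 genes both TGFB1 libraries were above both Ctrl libraries, and the highest level was in *Hmga2*-/- TGFB1. Their proportions stayed nearly the same, since *Itgav* made up 66.2% to 68.7% and *Itga5* 29.3% to 31.4% of their summed RPKM in the 4 libraries.

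The β subunits fell into those that rose in both genotypes and those that did not. *Itgb1*, on chromosome 8 (128685654 to 128733579, plus strand), rose 1.83-fold in *Hmga2*+/+ (log2 0.88 [0.86, 0.89]) and 2.13-fold in *Hmga2*-/- (log2 1.09 [1.07, 1.11]). Its RPKM exceeded the summed RPKM of its 12 known α partners in every library, 2.88-fold in *Hmga2*+/+ Ctrl, 2.46-fold in *Hmga2*+/+ TGFB1, 2.94-fold in *Hmga2*-/- Ctrl and 2.26-fold in *Hmga2*-/- TGFB1. *Itgb5*, whose product with αv binds vitronectin, on chromosome 16 (33829665 to 33949338, plus strand), had 20.1 [19.5, 20.8] RPKM in *Hmga2*+/+ Ctrl, 31.3 [30.5, 32.1] RPKM in *Hmga2*+/+ TGFB1, 21.1 [20.4, 21.8] RPKM in *Hmga2*-/- Ctrl and 39.0 [38.1, 39.9] RPKM in *Hmga2*-/- TGFB1. Its rise of 1.56-fold in *Hmga2*+/+ was close to the threshold, with a log2 interval of 0.58 to 0.70, and it rose 1.85-fold in *Hmga2*-/-. *Itgb3*, whose product pairs with αv in fibroblasts and with αIIb in platelets, on chromosome 11 (104608000 to 104670471, plus strand), had 0.889, 2.18, 0.925 and 2.55 RPKM in the same order, from 287 to 834 reads, and rose 2.45-fold and 2.75-fold.

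*Itgb8*, whose product pairs with αv alone and is known for the activation of latent TGFB1, lies on chromosome 12 (119162803 to 119238276, minus strand). Its RPKM was 4.50 [4.19, 4.82] in *Hmga2*+/+ Ctrl (776 reads), 3.89 [3.60, 4.19] in *Hmga2*+/+ TGFB1 (685 reads), 4.15 [3.86, 4.47] in *Hmga2*-/- Ctrl (723 reads) and 2.14 [1.93, 2.37] in *Hmga2*-/- TGFB1 (375 reads). The *Hmga2*-/- TGFB1 library was lowest, and the intervals of the other 3 libraries overlapped. The log2 change with TGFB1 was -0.21 [-0.36, -0.06] in *Hmga2*+/+ and -0.96 [-1.14, -0.77] in *Hmga2*-/-, a difference of -0.75 [-0.98, -0.51]. All 4 *Itgb8* transcripts of the table were lower with TGFB1, by log2 -0.53 to -0.19 in *Hmga2*+/+ and -1.33 to -0.96 in *Hmga2*-/-. Among the β partners of αv other than β1 the share of *Itgb8* in the summed RPKM was 17.6% in *Hmga2*+/+ Ctrl, 10.4% in *Hmga2*+/+ TGFB1, 15.9% in *Hmga2*-/- Ctrl and 4.90% in *Hmga2*-/- TGFB1. *Itgb7*, on chromosome 15 (102215995 to 102231935, minus strand), had 13 reads in *Hmga2*+/+ Ctrl, 3 in *Hmga2*+/+ TGFB1, 22 in *Hmga2*-/- Ctrl and 1 in *Hmga2*-/- TGFB1. Its log2 change with TGFB1 was -2.14 [-4.60, -0.28] and -4.39 [-9.84, -1.84], so that the size of its fall could not be measured at this depth. The leukocyte markers *Cd3e*, *Spi1* and *Tyrobp* were at 0, while *Cd68* had 1.25 to 1.63 RPKM and *Itgb2* 0.275 to 0.598 RPKM, and their part in the *Itgb7* reads was not tested.

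Between the genotypes the members differed little in the Ctrl libraries. At least 1.5-fold differences were found for *Itga11*, lower in *Hmga2*-/- by log2 -0.92 [-1.16, -0.68] (-0.49, below 1.5-fold, with 1 RPKM added), and for *Itgb7*, higher in *Hmga2*-/- with an interval that included 0 (log2 0.74 [-0.31, 1.86]). The other 8 members lay between log2 -0.11 (*Itgb8*) and 0.26 (*Itga1*). Of all protein-coding genes 7.79% were higher and 7.45% were lower in *Hmga2*-/- Ctrl, and of those with a mean of at least 1 RPKM 1.91% and 1.15%. The median log2 difference of the members was 0.05, against -0.012 over genes with reads. These comparisons of the genotypes use the same libraries as the comparisons of TGFB1 with Ctrl and are not independent of them.

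With TGFB1 the levels of *Itga11* (1.67-fold; log2 0.74 [0.67, 0.81]) and *Itga8* (1.56-fold; log2 0.64 [0.49, 0.79], and 0.44 with 1 RPKM added) were higher in *Hmga2*-/-, and those of *Itgb8* (1.82-fold; log2 -0.86 [-1.05, -0.68]) and *Itgb7* were lower. The interval of *Itgb7*, log2 -1.51 [-7.29, 2.06], included 0. *Itga11* was therefore below *Hmga2*+/+ in Ctrl and above it with TGFB1. The other 6 members were all higher in *Hmga2*-/- TGFB1 by less than 1.5-fold, from log2 0.13 [-0.09, 0.34] for *Itga1* to 0.47 [0.43, 0.52] for *Itga5*. Of all protein-coding genes 8.66% were higher and 7.28% were lower in *Hmga2*-/- TGFB1, and of those with a mean of at least 1 RPKM 2.59% and 1.45%. The median log2 difference of the members was 0.29, against 0.036 over genes with reads.

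**Figure D4:**
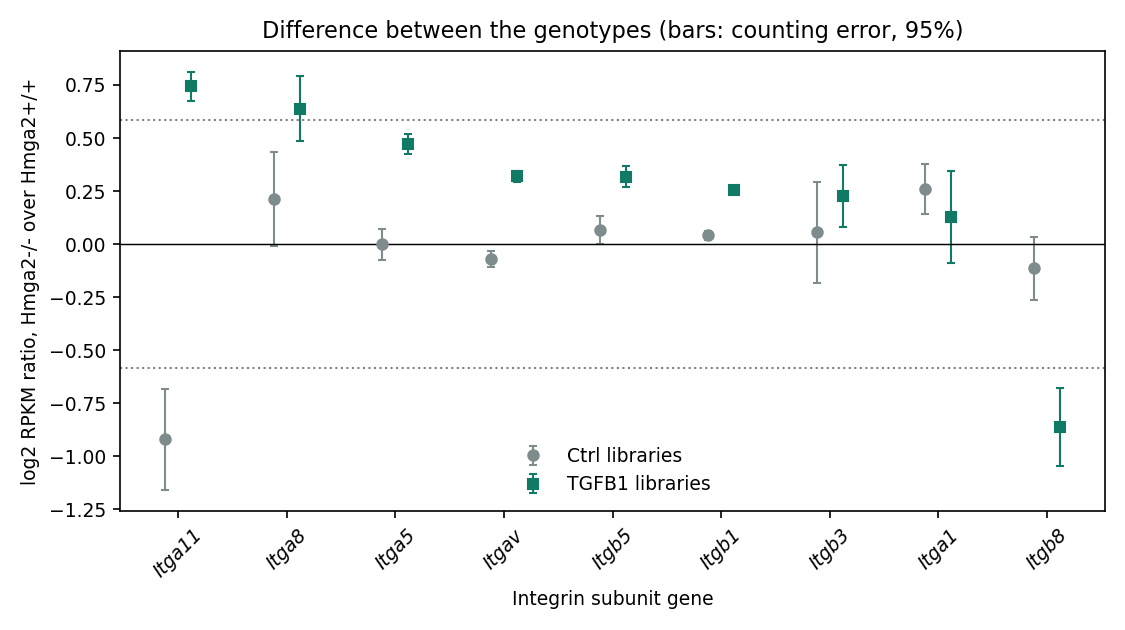
log2 RPKM ratio of *Hmga2*-/- over *Hmga2*+/+ for 9 members in the Ctrl libraries (circles) and in the TGFB1 libraries (squares), with 95% binomial intervals (counting error only) and dotted lines at 1.5-fold; *Itgb7* is left out for its 1 to 22 reads. *Itga11* is at -0.92 in Ctrl and 0.74 with TGFB1, and *Itgb8* is at -0.11 and -0.86.

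The response to TGFB1 was compared between the genotypes, where *Hmga2* and the cell line cannot be told apart. For each gene the difference between the log2 changes, *Hmga2*-/- minus *Hmga2*+/+, was taken. It was above 0 for 7 of the 10 members, against 59.7% of genes with a mean of at least 1 RPKM, with a median of 0.23 against 0.046. The 10 members include *Itgb7*, whose mean was below this filter. After *Itga11* the differences were 0.47 [0.39, 0.56] for *Itga5*, 0.43 [0.16, 0.69] for *Itga8*, 0.39 [0.34, 0.43] for *Itgav*, 0.25 [0.17, 0.33] for *Itgb5* and 0.21 [0.19, 0.24] for *Itgb1*. For *Itgb3* it was 0.17 [-0.11, 0.44], which included 0. A change at least 1.5-fold higher in *Hmga2*-/- was found for 1 member, *Itga11*, and in 9.69% of all protein-coding genes or 1.66% of those with a mean of at least 1 RPKM. A change at least 1.5-fold lower was found for *Itgb7* and *Itgb8*, and in 8.92% of all protein-coding genes or 1.08% of those with a mean of at least 1 RPKM. The interval of the difference for *Itgb7*, -2.25 [-5.67, 1.16], included 0. With 1 RPKM added the differences of *Itgb8*, -0.55, and *Itgb7*, -0.09, were below 1.5-fold, and that of *Itga11* was 1.18. With the libraries rescaled by the median of ratios, the differences of *Itgav*, 0.33, and *Itgb1*, 0.16, lay below the intervals given above.

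Among the 17 other integrin subunit genes, 5 had a mean of at least 1 RPKM and 4 of these rose in both genotypes, beside 11.1% of all genes with this mean in *Hmga2*+/+ and 12.8% in *Hmga2*-/-. *Itga2* rose most, with a log2 change of 3.94 [3.42, 4.50] in *Hmga2*+/+ and 3.70 [3.19, 4.25] in *Hmga2*-/-. *Itga6*, a laminin receptor subunit, rose from 2.48 to 8.32 RPKM and from 4.00 to 10.1 RPKM. *Itgb4*, its partner in epithelial hemidesmosomes, rose from 0.574 to 1.29 RPKM and from 0.677 to 1.97 RPKM. *Itga7*, a laminin receptor subunit of muscle, rose by log2 0.81 and 0.63. Of the leukocyte subunits *Itgad*, *Itgal*, *Itgam* and *Itgax* reached at most 0.008 RPKM and *Itgae* at most 0.061 RPKM. *Itgb2*, the β partner of *Itgal*, *Itgam* and *Itgax*, had 0.275 to 0.598 RPKM from 44 to 97 reads and rose 1.56-fold and 1.51-fold.

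Proteins that couple integrins to the cytoskeleton and to signalling were examined next. Of their 36 genes 30 had a mean of at least 1 RPKM, of which 5 rose and 2 fell in *Hmga2*+/+, and 6 rose and 2 fell in *Hmga2*-/-, with a median log2 change of 0.10 and 0.23. For comparison, of all genes with this mean 11.1% rose and 15.3% fell in *Hmga2*+/+, and 12.8% and 13.7% in *Hmga2*-/-. *Ptk2b*, a kinase related to focal adhesion kinase, rose by log2 1.11 [0.93, 1.29] and 1.53 [1.39, 1.67], and *Nedd9*, a docking protein of focal adhesions, by log2 0.98 and 1.27. *Flna*, which crosslinks actin and binds β subunits, rose by log2 0.97 and 1.00. *Tns1*, a tensin that ties β subunits to actin, fell by 1.24 [-1.31, -1.16] and by 0.95 [-1.02, -0.89] on the log2 scale.

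Many ligands of the members are matrix proteins. Of 28 ligand genes 25 had a mean of at least 1 RPKM, of which 12 rose and 3 fell in *Hmga2*+/+, and 12 rose and 4 fell in *Hmga2*-/-, beside the same shares over all genes with this mean (11.1% and 15.3%, and 12.8% and 13.7%). *Spp1*, the RGD ligand osteopontin, reached 303 RPKM from 19.4 RPKM in *Hmga2*+/+, and 321 RPKM from 14.0 RPKM in *Hmga2*-/-. *Tnc*, the matrix protein tenascin C, rose by log2 2.60 and 2.61, and *Fbn1*, the microfibril protein fibrillin 1, by log2 1.24 and 0.99. *Fn1*, fibronectin, rose from 465 to 818 RPKM and from 404 to 769 RPKM, and *Vtn*, vitronectin, was at 0 in all 4 libraries. *Npnt*, nephronectin, fell from 4.00 to 0.825 RPKM and from 4.18 to 1.12 RPKM, while its receptor subunit *Itga8* rose in both genotypes. *Tgfb1* itself had 7.56, 11.9, 5.97 and 14.0 RPKM in *Hmga2*+/+ Ctrl, *Hmga2*+/+ TGFB1, *Hmga2*-/- Ctrl and *Hmga2*-/- TGFB1, a rise of 1.58-fold and 2.35-fold.

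**Figure D5:**
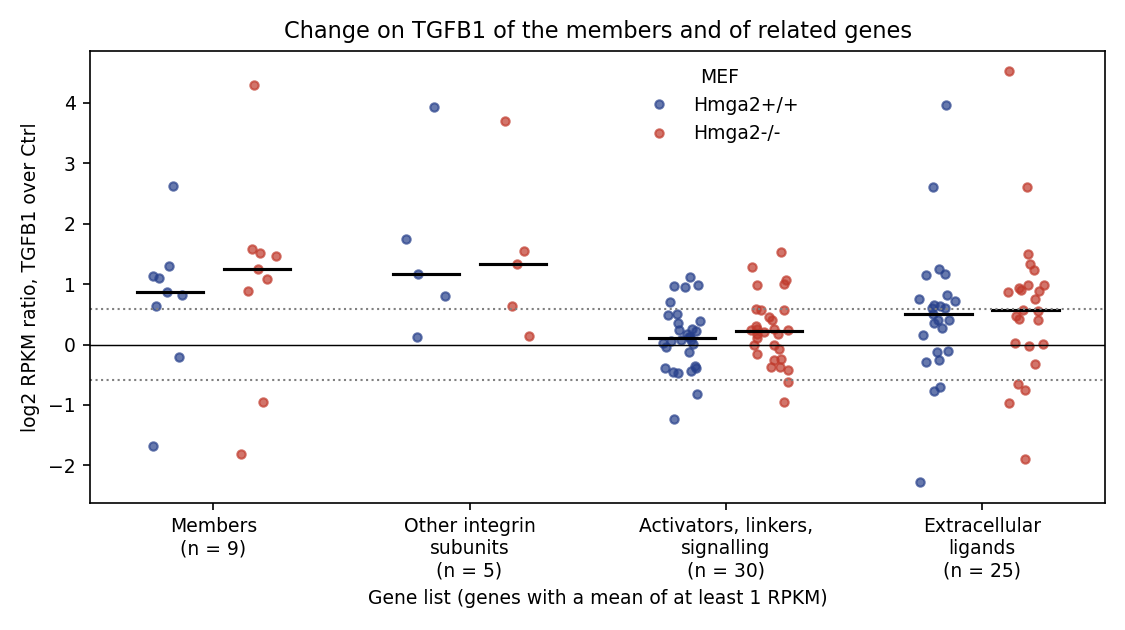
log2 RPKM ratio of TGFB1 over Ctrl for genes with a mean of at least 1 RPKM among the members (9), the other integrin subunits (5), the activators, linkers and signalling proteins (30) and the ligands (25), in *Hmga2*+/+ and *Hmga2*-/-; points are genes, black bars are medians and dotted lines mark 1.5-fold. The medians of the members are 0.88 and 1.25, and those of the linkers are 0.10 and 0.23.

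Of 8 smooth muscle and pericyte markers 5 rose and 2 fell with TGFB1 in each genotype, where 11.6% and 19.2% of all protein-coding genes did so in *Hmga2*+/+ and 13.0% and 18.4% in *Hmga2*-/-. Of the 5 with a mean of at least 1 RPKM, 4 rose and 0 fell in each genotype. Of all genes with this mean 11.1% rose and 15.3% fell in *Hmga2*+/+, and 12.8% and 13.7% in *Hmga2*-/-. The summed RPKM of the 8 markers was 48.5 in *Hmga2*+/+ Ctrl, 158 in *Hmga2*+/+ TGFB1, 90.4 in *Hmga2*-/- Ctrl and 319 in *Hmga2*-/- TGFB1. Most of it was *Acta2* and *Tagln* in the TGFB1 libraries. *Acta2*, the smooth muscle actin, had 15.9, 58.3, 48.2 and 165 RPKM in the same order of libraries. *Cnn1* had 0.938, 1.45, 2.23 and 3.49 RPKM in this order, while *Myh11* and *Des* were at most 0.054 RPKM. In bulk RNA more cells that express a gene and more RNA per cell cannot be told apart, and the part of the cells' make-up in these differences was not tested.

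The genes with the most like pattern were sought for the 3 members above 1 RPKM with the widest log2 range, by the Euclidean distance between centred log2 RPKM over the 4 libraries among 10313 other genes. For *Itga1* the nearest were *Sema3b*, at a distance of 0.071, and *Col4a5*, at 0.082. *Sema3b*, a secreted semaphorin, had 3.29, 0.975, 3.78 and 1.05 RPKM in *Hmga2*+/+ Ctrl, *Hmga2*+/+ TGFB1, *Hmga2*-/- Ctrl and *Hmga2*-/- TGFB1. *Col4a5*, a collagen IV chain, had 7.10, 2.11, 8.53 and 2.48 RPKM. For *Itga5* they were *Spsb1* at 0.061 and *Zfp52* at 0.11. *Itga11* had no gene as near, with *Moxd1* at 0.586 and *Fgf2* at 0.622, and *Fgf2*, a fibroblast growth factor, had 3.41, 34.7, 2.30 and 34.0 RPKM. With 4 libraries such likeness describes these libraries only.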

How the data were processed

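RNA-seq of total RNA (SMARTer Stranded Total RNA kit, single-end reads) was analysed for 4 MEF libraries, 1 per condition. After trimming with trimmomatic and mapping to mm10 with HISAT2 2.1.0, the authors deposited RPKM from HOMER for 63759 UCSC known transcripts, counted on the annotated strand. The header of the table names exons as the counted feature and the study's methods name genes. The study speaks of duplicates, and whether these were pooled is not stated in the sources used here. The transcript length in bases was also used.

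Transcripts were named where at least 50% of their span lay within a same-strand gene of GENCODE vM21 (57708 named). The members had 23 transcripts. A value of 0 RPKM was set to 0.001, as in the study. Depth was derived as the number of mapped reads that turned low RPKM into whole reads (100% within 0.1 read), and reads of the highest transcripts are rounded. No count test was run, since no condition has replicates. Python 3.11.15, numpy 2.4.6, pandas 2.3.3, scipy 1.17.1 and matplotlib 3.10.9 were used, and the steps were tested on simulated data.

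Members and gene lists were chosen with earlier results of these data known. Beside the members, *Hmga2*, up to 4 genes per list with the largest TGFB1 change in *Hmga2*+/+ (mean of at least 1 RPKM, at least 1.5-fold), *Fn1*, *Npnt*, *Vtn*, *Tgfb1* and the 2 genes nearest in pattern to each of 3 members were named by rule; *Pelo*, *Itga10*, *Itgb2*, the leukocyte subunits and cell type markers were named after their values were seen. Alternatives changed the value for 0 RPKM, the filter, the scaling, the transcript and the fold.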

Additional observations from a re-analysis of the deposited data

How the results depend on the processing

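Of the 230 log2 values of single members recomputed under other settings, none past 1.5-fold changed sign. The near-zero Ctrl difference of *Itga5* turned positive, 0.02, after rescaling. In all, 198 stayed within their counting interval and 32 moved beyond it, 17 of them with 1 RPKM added to every value. Of 56 counts 41 stayed within 1.5 times. With 0.1 RPKM added, no member was higher in *Hmga2*-/- Ctrl (0, and 2.11% of all protein-coding genes) and 1 was lower in *Hmga2*-/- TGFB1 (1.78%). With 1 RPKM added, 6 members rose (4.67% of all protein-coding genes) and 1 fell (5.76%) with TGFB1 in *Hmga2*+/+, 0 were higher (0.558%) and 0 lower (0.322%) in *Hmga2*-/- Ctrl, and 1 was higher (0.769%) and 1 lower (0.336%) in *Hmga2*-/- TGFB1. The calls lost in this setting were those of *Itga8* (log2 0.47) and *Itgb7* (-0.09) with TGFB1 in *Hmga2*+/+, of *Itgb7* in *Hmga2*-/- (-0.19), of *Itga11* (-0.49) and *Itgb7* (0.08) in Ctrl, and of *Itga8* (0.44) and *Itgb7* (-0.02) between the TGFB1 libraries. At a threshold of 2-fold, 4 members rose with TGFB1 in *Hmga2*+/+ (7.08% of all protein-coding genes), 0 were higher (5.4%) and 0 lower (5.12%) in *Hmga2*-/- Ctrl, and 0 were higher (5.71%) and 1 lower (5.05%) in *Hmga2*-/- TGFB1. Among members with a mean of at least 1 RPKM, which leaves out *Itgb7*, 1 fell with TGFB1 in *Hmga2*+/+ (15.3% of such genes), 0 were higher in *Hmga2*-/- Ctrl (1.91%) and 1 was lower in *Hmga2*-/- TGFB1 (1.45%). Rescaling by the median of ratios shifted the comparisons between 2 libraries by log2 -0.031 to 0.035. The genotype difference in the log2 TGFB1 change moved more, from 0.39 to 0.33 for *Itgav* and from 0.21 to 0.16 for *Itgb1*. Both new values lay outside the counting intervals, and those of the other members stayed within theirs. The share of all genes with a difference above 0 was not recomputed after rescaling. The *Itgav* transcript with the highest RPKM rose by log2 1.43 and 1.82. The causes of these shifts were not tested. No paired analysis was possible because each condition has 1 library, which is also why no replicate could be left out.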
